A study of Mus musculus with 59 samples.

Results

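Klk6, Serpinb1a and 8 further genes of proteolysis and its control were followed in RNA-sequencing libraries from the pons of mouse models of spinocerebellar ataxia type 3. This disease is caused by an expanded glutamine repeat in the deubiquitinase ataxin-3. The 10 genes were taken by symbol from a table of 41227 genes and comprise 5 proteases (Klk6, Klk8, Plat, Prss23 and Adamts4) and 5 inhibitors of the serpin family (Serpinb1a, Serpinb6a, Serpinb9, Serpine2 and Serpini1). They were put together with results of these data known: Klk6 and Serpinb1a were selected on their low FPKM in homozygous duplicated knock-in mice against wild-type, which is therefore given below as a description, without a test.

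Levels were deposited as FPKM, a fragment count divided by transcript length and library size, so they can be set side by side between genes. All mice were C57BL/6. The first set of 9 libraries held 3 wild-type (WT) mice, 3 mice with Atxn3 knocked out (Atxn3KO) and 3 mice homozygous for a duplicated Q82 repeat knock-in (dupKIHom). The second set of 28 libraries held 6 WT mice, 6 mice heterozygous for the duplicated Q82 repeat in Atxn3 (dupKIHet), 4 heterozygous (KIHet) and 4 homozygous (KIHom) for a single Q82 repeat, and 4 mice each with a human ATXN3 transgene of Q84 (YACQ84) or Q15 (YACQ15), whose titles mark them "hemi". In the knock-in groups the repeat sits in the mouse gene itself, whereas the YACQ84 and YACQ15 mice carry the human gene as an addition. Ages, and the sequences that drive the transgenes, are not given in the sources used here. The labels give no sex. Ddx3y of the Y chromosome stood at 23.6 to 32.6 FPKM in libraries of the first set and at most at 0.0215 in those of the second. Xist, which is made by the inactive X, stood at no more than 0.0176 and at 1.29 to 2.74 FPKM. These are the levels of male mice in the first set and of female mice in the second, so sex and set cannot be told apart. Tests were made separately in each set, and all levels below are to be read within a set.

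Kallikreins are secreted trypsin-like serine proteases. Klk6 is made in the adult brain mainly by mature oligodendrocytes, the cells that form myelin, and can cleave myelin proteins and protease-activated receptors. Serpins are suicide inhibitors: the protease cuts a loop of the serpin, the serpin changes shape, and the pair stays joined covalently, so that a serpin molecule is spent for each protease molecule. Secreted serpins such as Serpine2 and Serpini1 hold thrombin and tissue plasminogen activator in check outside the cell, and the clade B serpins, to which Serpinb1a, Serpinb6a and Serpinb9 belong, act mostly within cells on granule and lysosomal proteases.

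Klk6 lies on chromosome 7 in the kallikrein cluster, and its nearest neighbour in that cluster among the genes described here is Klk8. RefSeq promoter entries on build GRCm38.p6 matched 7 of the 10 genes (Klk6, Klk8, Prss23, Serpinb6a, Serpinb9, Serpine2 and Serpini1) and did not include Serpinb1a, Adamts4 and Plat. The 250 bases before both annotated starts of Klk6, and before the start of its neighbour Klk8, are shown because Klk6 had the widest range over the libraries of both sets, while Klk8 is its only tested neighbour and was called in no comparison. They lie on the plus strand at chr7:43824294-43824543 (Klk6, start 1), chr7:43825200-43825449 (Klk6, start 2) and chr7:43797327-43797576 (Klk8). Capitals mark matches, on either strand, to ACAAAG or ACAATG (cores bound by SOX factors), to CTGGNAC (a core bound by MYRF) or to TATAAA.
Klk6 start 1: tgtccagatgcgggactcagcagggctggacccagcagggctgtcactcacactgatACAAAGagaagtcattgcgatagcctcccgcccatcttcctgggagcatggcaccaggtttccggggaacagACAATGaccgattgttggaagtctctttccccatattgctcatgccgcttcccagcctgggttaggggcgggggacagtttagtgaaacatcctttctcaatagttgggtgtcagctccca
Klk6 start 2: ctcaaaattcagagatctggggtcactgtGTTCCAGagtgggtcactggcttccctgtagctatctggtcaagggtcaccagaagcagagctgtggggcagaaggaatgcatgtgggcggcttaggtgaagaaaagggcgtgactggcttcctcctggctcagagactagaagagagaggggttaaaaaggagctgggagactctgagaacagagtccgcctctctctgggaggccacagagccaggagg
Klk8: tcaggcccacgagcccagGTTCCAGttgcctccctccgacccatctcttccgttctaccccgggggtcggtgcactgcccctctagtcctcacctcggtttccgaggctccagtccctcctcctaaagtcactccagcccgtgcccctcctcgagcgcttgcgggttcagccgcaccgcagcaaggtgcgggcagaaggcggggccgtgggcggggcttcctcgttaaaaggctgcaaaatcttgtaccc
Klk6 start 1 held 1 match to ACAAAG and 1 to ACAATG, which occur in 16.5% and 10.7% of all 32851 promoter entries, with no overlap between matches. Klk6 start 2 and Klk8 each held 1 match to CTGGNAC, which occurs in 16.1% of entries, and none of the 3 windows held TATAAA, which occurs in 12.4%. Each window also held 1 match to CANNTG, the E-box core present in 66.2% of entries. The Klk8 window was the richest in CG pairs, with 18 against 7 and 3 in the Klk6 windows and a median of 6 over all entries. A match describes the letters of the window and no more.

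In WT mice of the second set Serpine2 had the highest level of the 10 genes, at 132 ± 11.6 FPKM (SD, n = 6). Serpini1 at 59.8 ± 4.29 and Klk6 at 59.0 ± 8.41 FPKM followed, and their libraries overlapped. Below them came Serpinb6a (33.0 FPKM), Adamts4 (22.0), Serpinb1a (20.6), Plat (13.4), Serpinb9 (3.93), Klk8 (1.06) and Prss23 (0.922). Of these neighbours in the order, Adamts4 and Serpinb1a overlapped, as did Klk8 and Prss23. The WT mice of the other set gave nearly the same order, with Serpine2 at 166 FPKM, Klk6 above Serpini1 and Serpinb1a next to Serpinb6a. All 10 genes passed the filter of 1 FPKM in at least 3 libraries in each set, but Klk8 reached 1 FPKM in 3 of 9 and 10 of 28 libraries and Prss23 in 7 of 9 and 5 of 28, so the low values of these genes limit what a test can show.

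**Figure D1:**
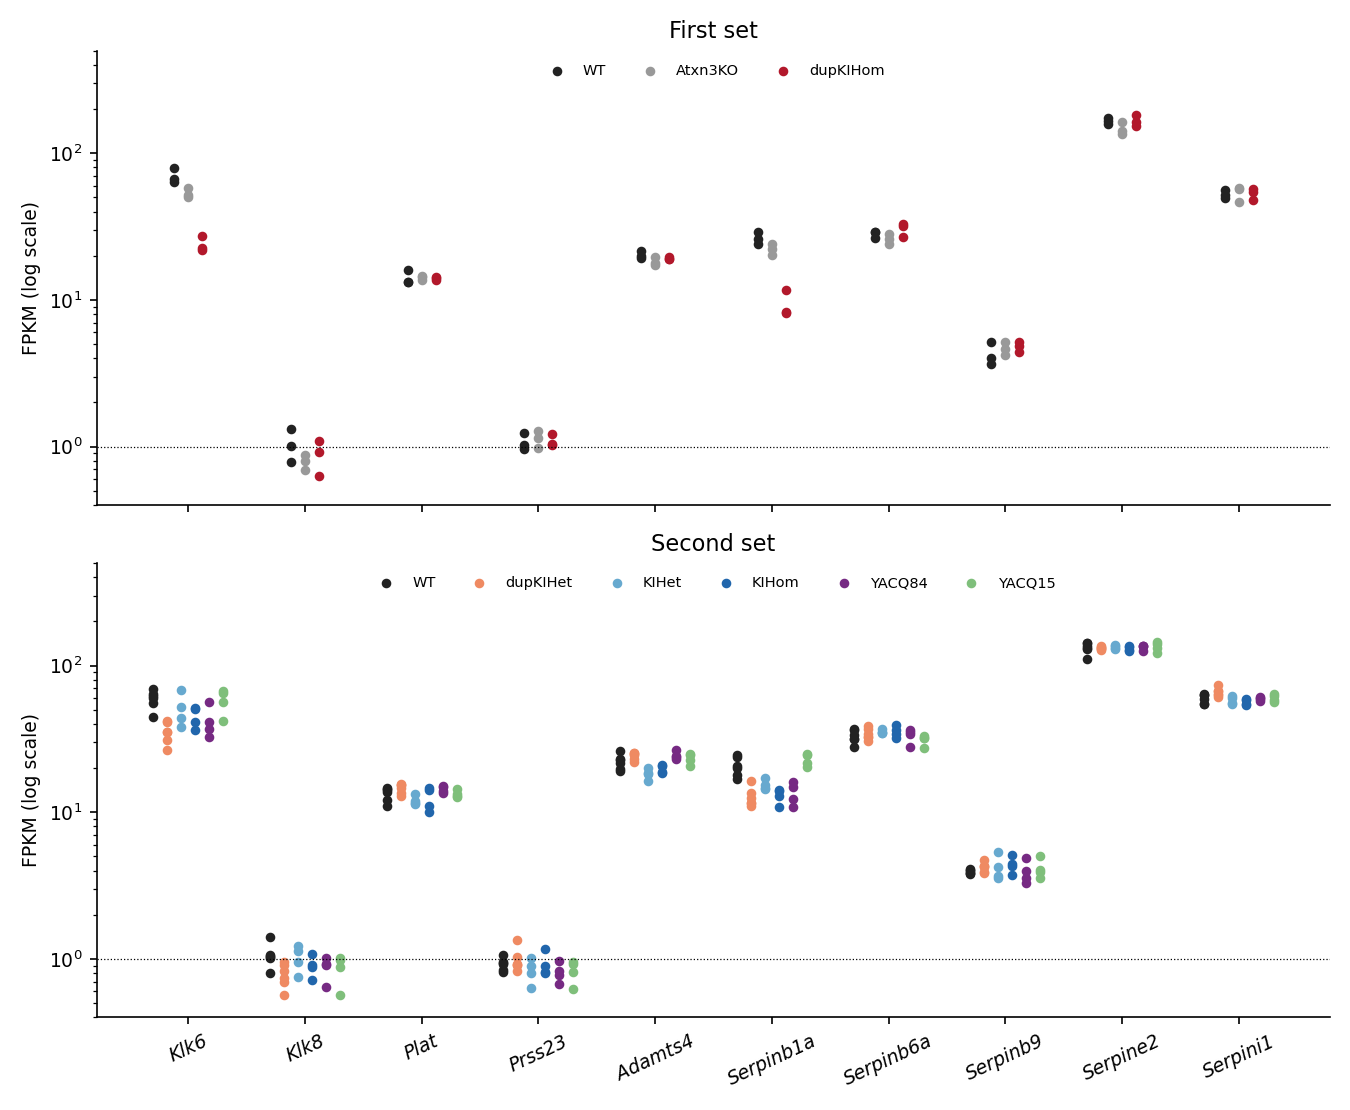
FPKM (log scale) of the 10 genes in each library of the first set (top) and the second set (bottom), coloured by genotype; the dotted line marks 1 FPKM. Serpine2 was highest in every library, Klk8 and Prss23 sat near 1 FPKM, and the genotypes spread most for Klk6 and Serpinb1a.

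The other facts of the libraries that touch these results are few. Atxn3 itself ran at 6.23 to 7.49 FPKM in WT and at 0.186 to 0.335 FPKM in Atxn3KO, as the labels say, and it was at 10.6 to 14.1 FPKM in dupKIHom. In the second set Atxn3 was at 6.20 to 8.15 FPKM in WT, 10.4 to 13.4 in dupKIHet, 5.47 to 6.92 in KIHet, 5.44 to 5.61 in KIHom, 5.71 to 8.58 in YACQ84 and 8.29 to 9.92 in YACQ15. The Atxn3 level was thus above every WT library of the same set in dupKIHom, dupKIHet and YACQ15. It was below every such library in Atxn3KO and KIHom. Its part in the results below was not tested. FPKM keeps no read totals, so depth is unknown. Of 12 pons and hindbrain markers, 10 of the first and 8 of the second set stood at 1 FPKM or more in all libraries, while Hoxb2 was listed at 0 throughout the second set. Ttr, the leading transcript of choroid plexus, spanned 4.51 to 2909 FPKM over the first set and 14.2 to 3125 over the second. The summed level of 24 oligodendrocyte markers was 7077 to 8173 FPKM in WT, 6266 to 6590 in Atxn3KO and 4758 to 5229 in dupKIHom. In the second set it was 5397 to 6392 in WT, 4388 to 4902 in dupKIHet, 4978 to 5509 in KIHet, 4694 to 5329 in KIHom, 4674 to 5259 in YACQ84 and 5048 to 5778 in YACQ15. Among these markers Mog stood at 137 to 167 FPKM in WT of the first set but at most at 0.408 FPKM in the second. The part of the marker levels in the results below was not tested, and in bulk tissue fewer cells of a type and less RNA per cell cannot be told apart.

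Library 1 of each genotype in the second set, numbered by column name, stood apart from the rest. Klk6 was lowest in library 1 in 6 of 6 genotypes, at 66.5% to 75.8% of the mean of the other libraries of its genotype. Serpinb1a was lowest there in 5 of 6 genotypes (75.8% to 91.6%), while Serpinb9 was highest there in 5 of 6 (median 127%). Over all 14802 genes of the set, 19.4% were lowest in library 1 of every genotype and 5.67% were highest, and the summed oligodendrocyte markers of library 1 were at 90.0% to 96.2% of the others. Results of the second set are therefore given with these 6 libraries and, where the call differs, without them.

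**Figure D2:**
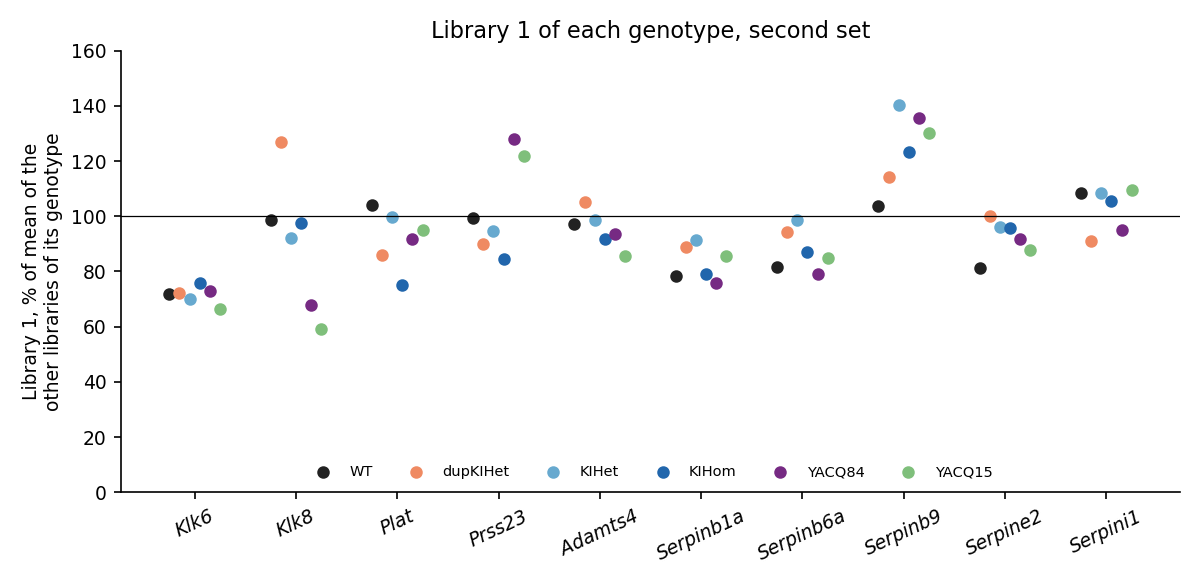
Level of each of the 10 genes in library 1 as a percentage of the mean of the other libraries of its genotype, second set, 1 point per genotype; the line marks 100%. All 6 Klk6 points lay between 66.5% and 75.8%, and all 6 Serpinb9 points lay above 100%.

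In the first set Klk6 and Serpinb1a stood apart from the other 8 genes. Klk6 was at 67.3, 63.6 and 79.0 FPKM in WT, at 50.2, 52.3 and 57.7 in Atxn3KO and at 21.9, 27.4 and 22.7 in dupKIHom. The 3 genotypes did not overlap, with Atxn3KO between the others. The mean of dupKIHom was 2.84-fold below WT on the scale of FPKM plus 1 (log2 difference -1.51), and 4 of 14059 genes had a lower log2 difference. Serpinb1a, an inhibitor of neutrophil elastase and related proteases, was at 24.1, 25.8 and 29.2 FPKM in WT, at 22.3, 24.0 and 20.2 in Atxn3KO and at 8.30, 8.20 and 11.7 in dupKIHom. Its genotypes fell in the same order without overlap, and dupKIHom was 2.66-fold below WT (-1.41). Against Atxn3KO the differences of dupKIHom were -1.13 for Klk6 and -1.17 for Serpinb1a, from the same dupKIHom libraries.

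The other 8 genes kept within -0.12 and 0.15 of WT in dupKIHom on the log2 scale. Plat, tissue plasminogen activator, was at 14.0, 13.7 and 14.2 FPKM in dupKIHom and at 13.2, 13.2 and 15.9 in WT. Adamts4, a metalloprotease that cuts the lectican proteoglycans of the matrix and is made by oligodendrocytes, was at 19.1, 19.0 and 19.8 against 20.0, 19.3 and 21.7 FPKM. The libraries of the 2 genotypes overlapped for both. Serpine2 (protease nexin-1, an inhibitor of thrombin) was at 163, 153 and 183 in dupKIHom and 159, 166 and 174 FPKM in WT, again overlapping. In dupKIHom mice Klk6 thus had rank 4 of the 10 by level, below Serpinb6a, and Serpinb1a had rank 7, below Adamts4 and Plat. In this contrast, which chose Klk6 and Serpinb1a, 1.15% of all genes passed an adjusted p of 0.05 as lower and 8.2% had all dupKIHom libraries below all WT libraries. Against Atxn3KO these shares were 0.69% and 5.78%. Of 24 oligodendrocyte markers 9 passed as lower in dupKIHom than in WT, with a median log2 difference of -0.11 over the list and 0.02 over all genes. So did 8 of 13 astrocyte markers (median -0.62), 3 of 12 neuron markers (-0.08) and 2 of 12 endothelial and mural markers (-0.27, with 12 of 12 below 0).

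Atxn3KO against WT shares its WT libraries with the contrast above. Klk6 and Serpinb1a were chosen because these WT libraries were high against dupKIHom, so their differences here can lean to lower values. None of the 10 passed the test, in a contrast where 0.0142% of genes did (2 of 14059, with 908 at an unadjusted p under 0.05). Klk6 was lower in 3 of 3 Atxn3KO mice than in any WT mouse, with a log2 difference of -0.38 (95% interval -0.60 to -0.16, limma adjusted p = 0.567). Serpinb1a was also lower in 3 of 3, by -0.24 (-0.52 to 0.04, adjusted p = 0.809), and 5.17% of all genes were separated in that way between these genotypes. The remaining 8 genes overlapped, at differences of -0.18 to 0.12. All 24 oligodendrocyte markers were lower on average in Atxn3KO (median -0.21), none past the threshold. Choroid plexus markers were above 0 for 12 of 12 (median 1.33) and blood cell markers for 5 of 6 (median 1.12), again none past it. Ttr was at 1442, 17.6 and 2909 FPKM in Atxn3KO and at most at 218 in WT. Whether these markers play a part in the values above was not tested.

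**Figure D3:**
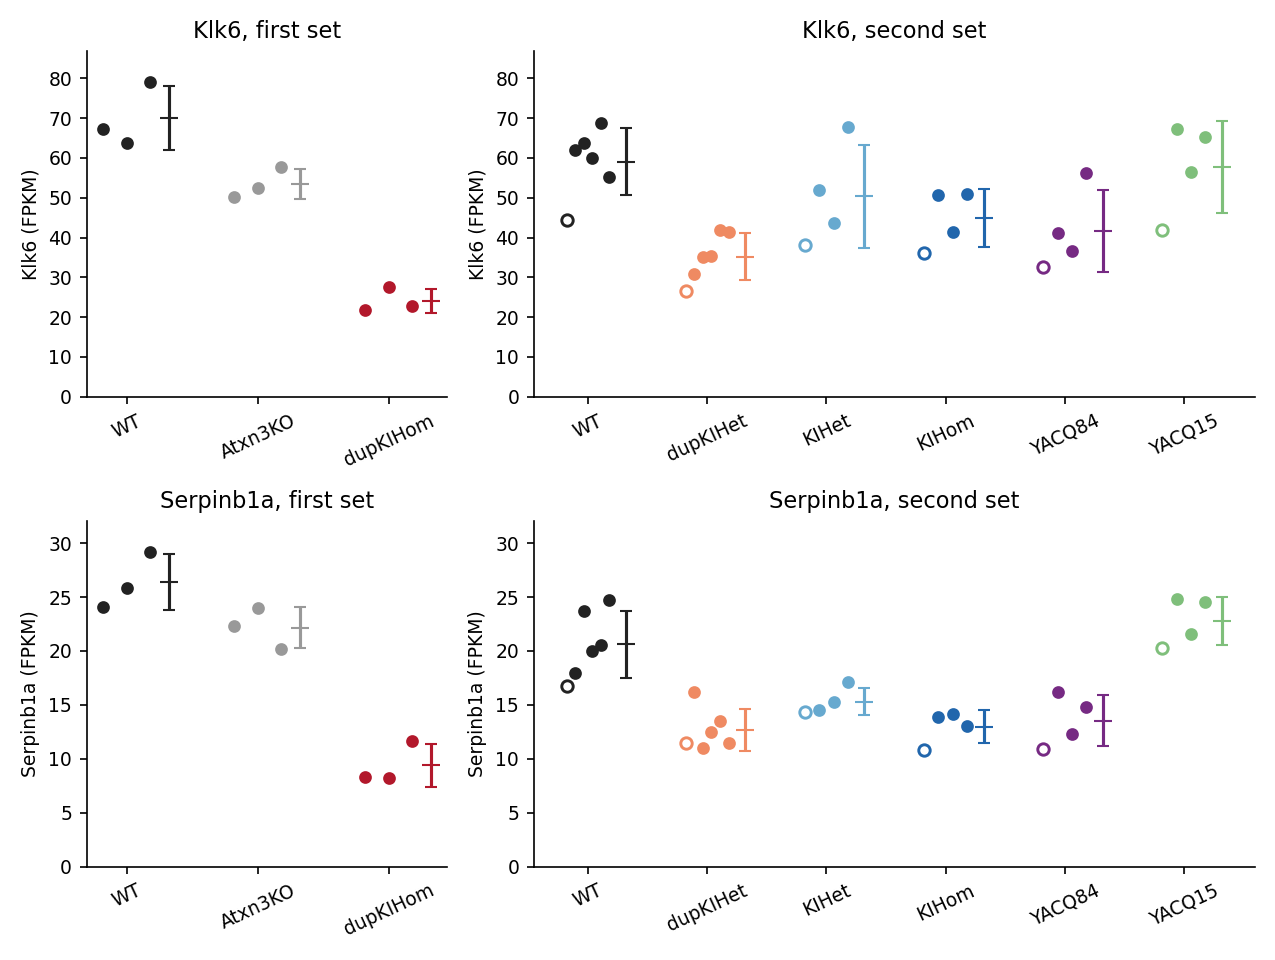
FPKM of Klk6 (top) and Serpinb1a (bottom) in each library by genotype, in the first set (left) and second set (right); bars give the mean and SD, and open circles mark library 1 of each genotype of the second set. dupKIHom lay below all other libraries of the first set, and dupKIHet lay below all WT libraries of the second.

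The second set shares no library with the first. In dupKIHet both Klk6 and Serpinb1a fell, and they were the 2 of 10 genes past the threshold, where 1.37% of all genes were called lower. Klk6 ran from 44.5 to 68.8 FPKM in the 6 WT mice (median 60.9) and from 26.6 to 41.8 in the 6 dupKIHet mice (median 35.3). All 6 dupKIHet mice were below every WT mouse. The fall was 1.66-fold (log2 -0.73, 95% interval -1.05 to -0.42, limma adjusted p = 0.00535). Serpinb1a ran from 16.7 to 24.7 FPKM in WT (median 20.3) and from 11.0 to 16.2 in dupKIHet (median 12.0), again with 6 of 6 below every WT mouse. It fell 1.58-fold (log2 -0.66, interval -0.87 to -0.45, adjusted p = 0.000217). Separation of this kind, with dupKIHet below WT, was seen in 1.11% of genes. Without library 1 of every genotype, Klk6 was at -0.74 (adjusted p = 0.000861) and Serpinb1a at -0.69 (0.000172).

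None of the other 4 proteases passed the test in dupKIHet. Klk8 (neuropsin, a kallikrein of neurons) ran from 0.569 to 0.948 FPKM against 0.805 to 1.42 in WT, at -0.21 (-0.38 to -0.04, adjusted p = 0.230). The 2 groups overlapped, and 0 of 6 dupKIHet libraries reached 1 FPKM against 5 of 6 in WT. Adamts4 was at 24.1 ± 1.33 against 22.0 ± 2.45 FPKM (log2 0.13, adjusted p = 0.411) and Plat at 14.6 ± 1.13 against 13.4 ± 1.42 (0.12, adjusted p = 0.578). Prss23, a secreted serine protease, was at 0.990 ± 0.186 against 0.922 ± 0.0887 FPKM.

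The 4 other serpins did not pass either. Serpini1 (neuroserpin, the inhibitor of tissue plasminogen activator in neurons) ran from 60.8 to 73.3 FPKM in dupKIHet (median 65.3) and from 54.3 to 63.9 in WT (median 61.1), and 4 of 6 dupKIHet mice were above every WT mouse. Its difference was 0.14 (0.03 to 0.24, limma adjusted p = 0.185), and 0.18 without library 1 of every genotype (adjusted p = 0.0452). Serpine2 was all but level, at 132 ± 2.97 in dupKIHet and 132 ± 11.6 FPKM in WT (difference 0.00, interval -0.10 to 0.10). Serpinb6a, which acts on intracellular serine proteases, was at 34.3 ± 3.12 against 33.0 ± 3.47 FPKM, and Serpinb9, the inhibitor of granzyme B, at 4.22 ± 0.315 against 3.93 ± 0.134. Beside these values, 8 of 23 oligodendrocyte markers and 8 of 13 astrocyte markers passed as lower in dupKIHet, and the summed astrocyte markers were at 1562 to 1732 FPKM against 2145 to 2449 in WT. Endothelial and mural markers went the other way, with 4 of 12 called higher and a median log2 difference of 0.24 (summed level 153 to 189 FPKM against 113 to 180 in WT). None of 11 choroid plexus markers passed, but 10 of 11 were above 0, with a median of 0.92 (summed level 450.0 to 3649 against 491 to 1258 FPKM). The part of these markers in the falls of Klk6 and Serpinb1a was not tested.

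In mice homozygous for the single Q82 repeat Serpinb1a fell, whereas Klk6 did not pass the test. Serpinb1a was at 10.8, 13.9, 14.2 and 13.0 FPKM in KIHom, each below all WT mice. It fell 1.54-fold (log2 -0.62, interval -0.86 to -0.39, limma adjusted p = 0.0111), the 1 of 10 genes called in a contrast where 0.459% of genes were called lower and 2.34% lay below every WT library. Klk6 was at 36.2, 50.8, 41.3 and 51.0 FPKM in KIHom, with 2 of 4 below all WT mice, at -0.39 (-0.74 to -0.04, adjusted p = 0.314). The Serpinb1a call was lost without KIHom library 1 (-0.54, adjusted p = 0.0742), without the libraries above 1000 FPKM of Ttr (0.126) and with KIHom and WT fitted alone (0.115), and it held without library 1 of every genotype (-0.60, 0.0247). In KIHom 5 of 23 oligodendrocyte markers passed as lower and 1 as higher, with a median log2 difference of -0.10. Endothelial and mural markers were below 0 for 12 of 12, with 2 called lower and a median of -0.24. Of 13 astrocyte markers 1 passed as lower (median -0.08). All 11 choroid plexus markers were above 0 (median 0.19), none past the threshold.

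KIHet mice had Serpinb1a at 14.3, 14.5, 15.2 and 17.1 FPKM, with 3 of 4 below all WT mice. The difference was -0.40 (-0.63 to -0.16) and did not pass (limma adjusted p = 0.181), and 0 of the 10 genes did where 0.115% of all genes were called (17, with 1575 at an unadjusted p under 0.05). With a term for library 1, chosen after seeing the data, it was at -0.38 (adjusted p = 0.0487). Klk6 spread widely in KIHet, at 38.1, 51.8, 43.6 and 67.8 FPKM, which overlapped WT (-0.25, -0.60 to 0.10, adjusted p = 0.652). Adamts4 was at 18.1, 16.4, 18.6 and 19.9 FPKM, 3 of 4 below all WT mice, at -0.25 (-0.40 to -0.11, adjusted p = 0.162, and 0.0471 without WT library 2). Between KIHom and KIHet no gene of 14802 was called by limma (0%, with 333 at an unadjusted p under 0.05). Serpinb1a was lower in 4 of 4 KIHom mice than in any KIHet mouse, at -0.23 (-0.48 to 0.03), as 0.655% of genes were.

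The 2 human transgene groups differed in Serpinb1a. Repeat length cannot be told apart here from other differences between these groups, such as their Atxn3 level. It was at 10.9, 16.2, 12.3 and 14.8 FPKM in YACQ84 and at 20.2, 24.8, 21.6 and 24.5 in YACQ15. No YACQ84 mouse reached the lowest YACQ15 mouse, and YACQ84 also lay below all 6 WT mice. Against YACQ15 it was 1.65-fold lower (log2 -0.72, interval -0.98 to -0.46, limma adjusted p = 0.00480), the 1 of 10 genes called where 0.054% of all genes were called lower and 1.43% were below every YACQ15 library. Against WT it fell 1.49-fold (-0.57, -0.81 to -0.34, adjusted p = 0.0157), again alone among the 10, with 0.162% of genes called lower and 0.676% below every WT library. The call against WT was lost without YACQ84 library 1 (adjusted p = 0.108) or library 3 (0.0979) and with the 2 genotypes fitted alone (0.222), and that against YACQ15 without the libraries above 1000 FPKM of Ttr (0.128) and with the 2 genotypes fitted alone (0.171).

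Klk6 was at 32.6, 41.2, 36.7 and 56.3 FPKM in YACQ84 and at 41.9, 67.4, 56.4 and 65.3 in YACQ15. The 4 YACQ84 mice overlapped both YACQ15 and WT. Its differences were -0.51 from WT (-0.86 to -0.16, limma adjusted p = 0.296) and -0.47 from YACQ15 (-0.85 to -0.08, adjusted p = 0.620), and with a term for library 1 they were -0.47 from WT (adjusted p = 0.0283) and -0.47 from YACQ15 (0.0633). In YACQ15 none of the 10 genes differed from WT beyond the test, and 0.00676% of all genes did (1 of 14802, with 665 at an unadjusted p under 0.05). Klk6 was at -0.04 (-0.39 to 0.31) and Serpinb1a at 0.15 (-0.09 to 0.38), the only genotype of the second set with a mean Serpinb1a above WT. Of 23 oligodendrocyte markers 5 passed as lower in YACQ84 against WT, with 12 below 0 and a median log2 difference of -0.06. In YACQ15 against WT 0 passed, but 18 of 23 were below 0, with a median of -0.11.

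**Figure D4:**
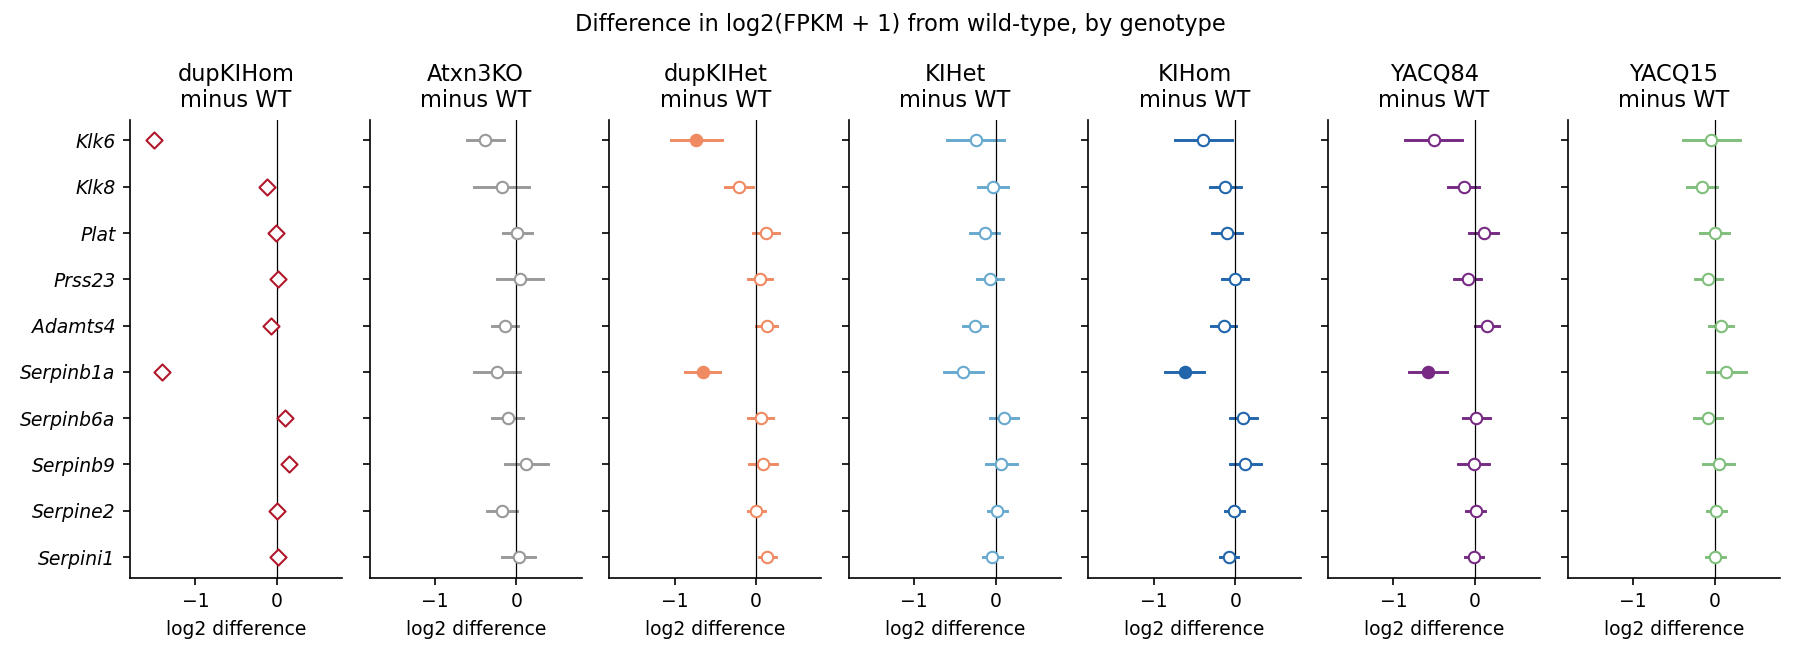
Difference from WT in log2(FPKM + 1) of the 10 genes, 1 panel per genotype; lines give 95% intervals, filled circles an adjusted p under 0.05, open circles a larger one, and diamonds the dupKIHom values, which have no test. Filled circles are Klk6 and Serpinb1a in dupKIHet and Serpinb1a in KIHom and YACQ84.

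By mean level, the genotypes of the second set ran for Klk6 from WT (59.0 ± 8.41) through YACQ15 (57.7 ± 11.6), KIHet (50.3 ± 12.9), KIHom (44.8 ± 7.33) and YACQ84 (41.7 ± 10.3) to dupKIHet (35.2 ± 5.89 FPKM). For Serpinb1a they ran from YACQ15 (22.8 ± 2.22) through WT (20.6 ± 3.13), KIHet (15.3 ± 1.25), YACQ84 (13.5 ± 2.38) and KIHom (13.0 ± 1.53) to dupKIHet (12.7 ± 1.95 FPKM). Every pair of neighbours in either order overlapped. Klk6 passed against WT in dupKIHet and not in KIHom or YACQ84, but those genotypes were not tested against dupKIHet.

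The duplicated and the single repeat in heterozygous mice, dupKIHet against KIHet, differed past the threshold for Adamts4 and Serpini1. Adamts4 ran from 22.0 to 25.2 FPKM in dupKIHet (median 24.6), above all 4 KIHet mice. It was 1.30-fold higher (log2 0.38, interval 0.24 to 0.53, limma adjusted p = 0.00145). Serpini1 was higher by 0.18 (0.06 to 0.29, adjusted p = 0.0415), with 5 of 6 dupKIHet mice above all KIHet mice. Here 7.84% of all genes were called higher and 5.48% had every dupKIHet library above every KIHet library, so the 2 of 10 genes stand beside a wide background. Klk6 was at -0.49 (-0.84 to -0.14, adjusted p = 0.0649) and Plat at 0.26 (0.08 to 0.44, adjusted p = 0.0567), and without library 1 of every genotype both passed (0.0207 and 0.0404), while Serpinb1a was at -0.26 (adjusted p = 0.152). With a term for library 1 Klk6, Plat and Serpinb1a all passed, Serpinb1a at -0.28 (limma adjusted p = 0.0293). Of all genes, 1771 of 14664 were called without library 1 of every genotype. With the term 3712 of 14802 were called, against 1577 in the main fit, so these added calls also stand beside a wide background. The Serpini1 call was lost without any of 7 of the 10 libraries, at adjusted p of 0.0518 to 0.128. It was also lost with no filter on low values, with the 2 genotypes fitted alone and under quantile normalisation (adjusted p = 0.126), where Klk6 passed in its place (0.0249). Beside these values, 9 of 13 astrocyte markers passed as lower and 9 of 12 endothelial and mural markers as higher in dupKIHet than in KIHet.

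Serpinb1a has a close copy, Serpinb1b, and FPKM of such copies can be split between them. Serpinb1b stood at 4.38 to 17.0 FPKM over all libraries and was called in no comparison. The sum of both genes was 30.2 to 37.4 FPKM in WT, 31.2 to 41.0 in Atxn3KO and 17.2 to 21.8 in dupKIHom. In the second set it was 26.7 to 35.0 in WT, 18.5 to 29.2 in dupKIHet, 21.5 to 28.8 in KIHet, 21.0 to 24.6 in KIHom, 18.3 to 26.7 in YACQ84 and 31.9 to 34.8 in YACQ15. By exact permutation tests over libraries (two-sided, 6 comparisons, Benjamini-Hochberg adjusted), the sum was lower than WT in dupKIHet (-0.34, adjusted p = 0.0381), KIHet (-0.29, 0.0457), KIHom (-0.37, 0.0381) and YACQ84 (-0.42, 0.0381). It was also lower in YACQ84 than in YACQ15 by exact permutation (-0.56, p = 0.0286, the smallest p this design allows, adjusted 0.0429), and in YACQ15 against WT it did not pass (0.15, exact permutation p = 0.143). These p were adjusted over 6 comparisons and the limma p over all genes, so the thresholds are unlike. In KIHet Serpinb1a alone did not pass (limma adjusted p = 0.181). For Serpinb1a alone the differences were larger in dupKIHet, KIHet, KIHom and YACQ84. The copies of 2 other members ran low, with Serpinb6b at most at 1.87 and Serpinb9b at most at 0.0668 FPKM.

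**Figure D5:**
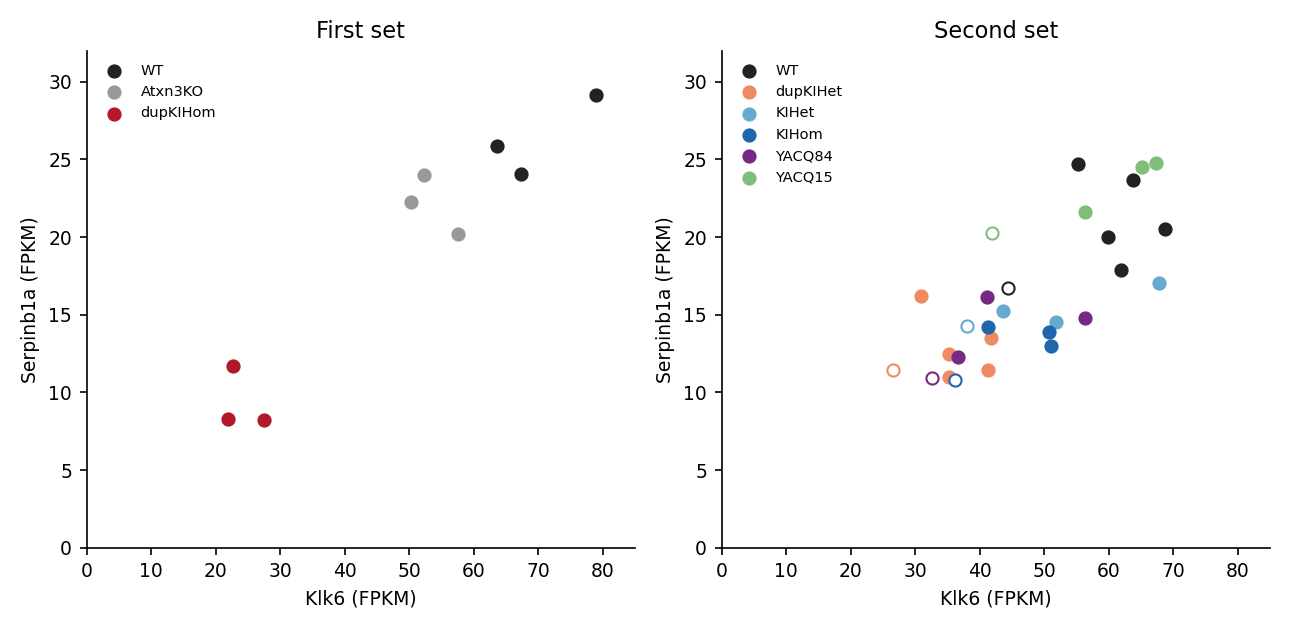
Serpinb1a against Klk6 (FPKM, linear axes), 1 point per library, first set (left) and second set (right), coloured by genotype; open circles mark library 1 of each genotype of the second set. dupKIHom libraries lay apart at the lower left. In the second set all dupKIHet libraries lay below all WT libraries on both axes. KIHom and YACQ84 did so for Serpinb1a but overlapped WT for Klk6, and KIHet overlapped WT for both.

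Pearson's r of the log2 levels of Klk6 and Serpinb1a was 0.95 over the 9 libraries of the first set and 0.75 over the 28 of the second. Both genes were selected on WT and dupKIHom libraries of the first set, which fixes a high r there. Once each library was taken as its deviation from the mean of its genotype, r of Klk6 with Serpinb1a was -0.10 over the first set and 0.48 over the second. Deviations of the second set keep the shift of library 1, where Klk6 was lowest in 6 of 6 genotypes and Serpinb1a in 5. Its part in this r was not tested. Among 12896 genes kept in both sets, Serpinb1a had rank 46 by the smaller of its 2 correlations with Klk6. The 5 genes most like Klk6 by that measure were Qdpr (0.97 and 0.93), Efhd1 (0.92 and 0.89), Gprc5b (0.94 and 0.89), Lrig1 (0.99 and 0.88) and Itpkb (0.99 and 0.88).

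For Serpinb1a the 5 most like genes were Il33 (0.99 and 0.94), Car2 (0.98 and 0.89), Qdpr (0.97 and 0.89), Pex5l (0.95 and 0.88) and Efhd1 (0.92 and 0.87). Il33, an alarmin cytokine made in oligodendrocytes and astrocytes, was at 95.5 ± 13.2 FPKM in WT, 102.9 ± 6.46 in YACQ15 and 53.7 to 64.4 on average in the 4 other genotypes of the second set. Qdpr, which regenerates tetrahydrobiopterin, was at 341 ± 31.0 FPKM in WT and 246 ± 20.3 in dupKIHet. By deviations from the genotype means the order of likeness changed, and none of these genes stayed among the first 5. Lrig1 was at 0.77 and 0.82 with Klk6 (rank 16 of 12896) and Il33 at 0.88 and 0.69 with Serpinb1a (rank 15), while Qdpr was at -0.09 and 0.89 with Klk6 (rank 7003). The points of these correlations share genotypes and libraries, and the values are given as a description. In the second set the deviations also keep the shift of library 1, whose part was not tested.

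Neighbouring genes were read to see whether the differences extended along the chromosome. The 5 RefSeq neighbours on each side of Klk6 are all kallikreins, and apart from Klk8 none of the 9 was high enough to be tested. Of 9 neighbours of Serpinb1a on chromosome 13 that are not members, 6 were tested and 0 were called in any comparison with WT, while 1 was called in dupKIHet against KIHet. The other members of the cluster on that chromosome, Serpinb6a and Serpinb9, were not called in any comparison.

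The wider set of proteases and inhibitors was read from lists drawn up with earlier results known. None of 13 other kallikreins was high enough to be tested, the highest being Klk14 at 1.06 FPKM. Of 3 testable protease-activated receptors and partners and 4 genes of plasminogen activation, none was called in dupKIHet against WT. In that contrast 1 of 11 other serpins was lower (median of the list 0.02), 2 of 21 other serine proteases were lower and 2 higher (0.04), 1 of 19 ADAMTS and lectican genes was lower (-0.03) and 3 of 17 other inhibitors were lower (-0.05), against a median of 0.01 over all genes and 2.53% called in either direction.

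Itih3, a heavy chain of inter-alpha-trypsin inhibitor, fell the most of these genes, from 56.5 ± 4.91 FPKM in WT to 30.6 ± 3.91 in dupKIHet (log2 -0.87, limma adjusted p = 7.85e-06). Serpind1, the thrombin inhibitor heparin cofactor II, fell from 5.08 ± 1.00 to 2.80 ± 0.334 FPKM (-0.67, adjusted p = 0.0164). Htra1, a secreted serine protease, fell from 110 ± 15.6 to 74.2 ± 8.03 FPKM (-0.55, adjusted p = 0.000776). Each of these 3 was lower in 6 of 6 dupKIHet mice than in any WT mouse. Timp4, a metalloprotease inhibitor, and Prss35 both fell by 0.44 on the log2 scale (adjusted p = 5.54e-05 and 0.000251). Tmprss5, a membrane-bound serine protease, rose from 6.21 ± 1.97 to 10.7 ± 1.78 FPKM (0.73, adjusted p = 0.0225).

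In dupKIHom of the first set the differences from WT were -1.08 for Serpind1, -0.83 for Itih3, -0.54 for Htra1, -0.40 for Adamts1 and 0.49 for Tmprss5, given as a description. In dupKIHet against KIHet, Itih3 (-0.84), Htra1 (-0.64), Serpind1 (-0.57) and Timp4 (-0.46) were lower, and Tmprss5 (0.80) and Adamts1 (0.59) were higher, each past the threshold by limma. By list, 1 of 11 other serpins, 6 of 21 other serine proteases, 3 of 19 ADAMTS and lectican genes and 5 of 17 other inhibitors were called in that contrast, where 10.7% of all genes were. None of the genes on these lists was called in Atxn3KO, KIHet, KIHom, YACQ84 or YACQ15 against WT, nor in YACQ84 against YACQ15, where Serpinb1a was.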

How the data were processed

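The authors deposited FPKM per gene and library. Per the submitters' processing notes, which give no roles, TopHat2, Cuffdiff, DESeq, Trimmomatic, FastQC and CASAVA 1.8.2 were used with build mm8; whether counting used strand is not given in the sources used here. Of 59 samples 37 have a column; the other 22 were not analysed here. For 6 WT columns the name matched 2 samples, so these were used as WT only, with the set taken from their place in the table, as libraries that the design text counts as mice. Of 41386 lines, 27 bearing a date were left out and 132 repeated symbols were summed. Genes listed at 0 throughout a genotype and at 1 FPKM or more throughout another (7 and 12) were not tested.

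Computed here: limma 3.58.1 (R 4.3.3; lmFit, eBayes with trend, two-sided) on log2(FPKM + 1), 1 mean per genotype, separately per set, on genes at 1 FPKM or more in at least 3 libraries (14059 and 14802), with Benjamini-Hochberg adjustment over all of them and calls at an adjusted p under 0.05. It was checked on simulated data. FPKM summed to 488351 to 695249 and 430083 to 560516 per library. Fold changes refer to FPKM + 1 and understate low genes. The members and lists were chosen with earlier results of these data known. Named were all 10 members and, of the lists, at most 6 called genes per contrast by size. Alternatives changed the pseudocount, filter, scaling, genotypes fitted, block, Ttr-rich libraries and single libraries; those on library 1 and Serpinb1b were added after seeing the data.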

Additional observations from a re-analysis of the deposited data

Results flagged for a closer look

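Gap tests for a library standing apart were made in 60 groups of 4 to 6 libraries, of which chance flags about 1 in 20, and 2 stood out. Serpinb6a in KIHet was highest in library 3, at 37.0 FPKM, where the other libraries were at 34.7 to 35.0. Serpine2 in YACQ84 was lowest in library 1, at 125 FPKM, where the others were at 135 to 137. Neither gene was called in any comparison.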

How the results depend on the processing

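Klk6 and Serpinb1a were past the threshold in dupKIHet against WT under every alternative run, at adjusted p of 3.65e-06 to 0.0492 for Klk6 and 6.26e-06 to 0.0292 for Serpinb1a, the largest without the libraries above 1000 FPKM of Ttr; no direction reversed for a called gene. The number of the 10 genes called was 2 there under every alternative but 1: without library 1 of every genotype it was 3, with Serpini1 higher. It moved further in other comparisons. With only the 2 genotypes fitted it was 0 in KIHom (main 1), YACQ84 against WT (1) and YACQ84 against YACQ15 (1), and 1 in dupKIHet against KIHet (2). Without the libraries above 1000 FPKM of Ttr it was 0 in KIHom and in YACQ84 against YACQ15. With no filter on low values it was 1 in dupKIHet against KIHet. Without library 1 of every genotype it was 4 in dupKIHet against KIHet, and with a term for library 1 it was 5 there, 1 in KIHet and 2 in YACQ84 against WT. Over all genes the calls in dupKIHet against KIHet were 1771 of 14664 and 3712 of 14802 in those fits. Leaving out single replicates gave 0 to 1 in KIHet, KIHom and YACQ84 against WT and 1 to 3 in dupKIHet against KIHet. The cause was not tested.

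Libraries numbered 1 in the second set deviated together, with all 15 pairs correlated at 0.16 to 0.38 (median 0.29, against -0.03 for pairs numbered differently); what they share is not given. Pairs of the other numbers were not always above 0.1, so the numbers as a whole were not taken as pairs. With the replicate block, 2 of the 10 genes were called in YACQ84 against WT and against YACQ15 (Klk6 at -0.43 and -0.47, limma adjusted p = 0.0292 and 0.0240, besides Serpinb1a). In dupKIHet against KIHet 5 were called (Serpinb1a at -0.29, limma adjusted p = 0.0381, with Klk6, Plat, Adamts4 and Serpini1). There the block called 4240 of all 14802 genes, against 1577 in the main fit. In YACQ84 it called 182 genes against WT and 138 against YACQ15. The block changed no other count of the 10 genes.

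Counts over all genes differed more than the members' calls: dupKIHom against WT 230 (112 to 332 over all alternatives), dupKIHom against Atxn3KO 175 (64 to 263), Atxn3KO 2 (2 to 8), dupKIHet 375 (227 to 900), KIHet 17 (0 to 358), KIHom 89 (6 to 711), YACQ84 78 (3 to 207), YACQ15 1 (0 to 2), YACQ84 against YACQ15 39 (3 to 139), dupKIHet against KIHet 1577 (693 to 4240) and KIHom against KIHet 0 (0 to 1). The fit without Ttr-rich libraries left 1 Atxn3KO library, so the ranges of the Atxn3KO comparisons leave it out. FPKM carry no counts, so depth sets no stated limit on the low genes Klk8 and Prss23.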
